A study of Homo sapiens with 6 samples.

Results

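The junctions described here are introns read from RNA whose 5′ and 3′ splice sites both end no annotated junction read in the 6 libraries. They were selected on measured reads: a junction had to be marked unannotated, carry a splice site motif code from 1 to 6, lie on chromosomes 1 to 22 or X, and have at least 10 uniquely mapped reads pooled over all 6 libraries. In addition, neither of its sites could end an annotated junction of the same strand in any library. An annotated site thus counted as unannotated if none of its annotated junctions was read in these libraries. The rule found 6616 members among 186132 junctions with at least 10 pooled reads, and among 780566 junctions of any depth. The other unannotated junctions of that depth kept an annotated site: 9949 had only an annotated 5′ site, 8159 only an annotated 3′ site, and 7924 paired 2 annotated sites in a way the annotation lacks. At the minimum, 613 members had 10 pooled reads and a mean of 0.0655 RPM (reads per 1000000 unique junction reads of a library), and 538 had 11. Just outside, 732 junctions of the class had 9 pooled reads and 912 had 8, with a mean of 0.0525 RPM at 8.

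An intron is removed by joining the 5′ splice site, usually GT on the DNA strand, to the 3′ splice site, usually AG. U2AF1 is the small subunit of the factor that contacts the AG of the 3′ site, and the S34F substitution in one of its zinc fingers is recurrent in myeloid neoplasms, where it is known to alter the choice of 3′ sites. Aligners report a junction when part of a read maps on each side of a gap. A junction with both sites outside the annotation can come from an unlisted transcript, from an unlisted internal exon, from the opposite strand of a known gene, or from a misplaced alignment, and the tables used here do not tell these apart. The word intron below means the gap of a junction, whichever of these it came from.

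The tables list the introns read in poly(A) RNA of K562, an established cell line from a human chronic myeloid leukaemia. Of the libraries, 3 came from cells whose knock-in at U2AF1 is wild type and 3 from cells with U2AF1 S34F. The labels do not say how the S34F cells came to carry the substitution, nor whether the replicates came from separate clones or cultures, and p-values measure only the spread between these libraries. Positions are on hg19, the build named in the submitters' processing notes, and are 1-based. Strand follows the motif code, so on the minus strand the 5′ site is the larger coordinate. No genome or gene table of that build was at hand, so members are named by position alone.

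Uniquely mapped junction reads ranged from 18074706 to 39279169 per library, and all levels below are RPM of these. Members carried 317037 unique reads in all, between 14.6% and 19.6% of the reads of unannotated junctions in each library. They also carried 139417 multi-mapped reads, which were 30.5% of their reads, against 5.85% for annotated junctions and 3.16% to 5.33% for the other unannotated classes. Their log2 levels correlated between libraries with Pearson's r from 0.504, for wild-type replicate 3 and S34F replicate 3, to 0.720, for wild-type replicates 2 and 3. These correlations run over 6616 junctions that share libraries, and junctions are not replicates. Only 3096 members, 46.8%, were read in all 6 libraries, and 28 in 1 library alone. Cell type markers were not analysed here, since they need gene names.

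The summed level of all members was 2220, 1849 and 2245 RPM in wild-type replicates 1 to 3 and 2262, 2141 and 2016 RPM in S34F replicates 1 to 3. The groups overlapped, with means of 2105 ± 222 and 2140 ± 123 RPM (SD, n = 3 each). Reads were spread unevenly: the 10 most-read members held 15.5% of them, while the median member had 19 pooled reads. The difference of 35.0 RPM was smaller than the spread between libraries of either group.

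Most members lay away from the annotated introns read in these libraries. By the annotated junctions of the files, 3806 members (57.5%) overlapped none, 1038 lay inside an annotated intron of the same strand, 1026 overlapped annotated introns of the opposite strand only, and 746 spanned an annotated site of the same strand. The first kind held 62.4% of the members' reads. Its summed level was 1439, 1123 and 1295 RPM in the wild-type libraries and 1483, 1339 and 1254 RPM in the S34F libraries, which overlap. The distance to the nearest annotated site of the same strand had a median of 6884 nt: 2016 members lay within 1000 nt of one and 1045 more than 100000 nt away. Against annotated sites of either strand, 21 members would lose their place in the class. Another 37 had both ends within 20 nt of the ends of a single annotated junction, 17 on the same strand and 20 on the opposite one, and 14 of these had exactly the length of that junction.

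The rule admitted only splice site dinucleotides of motif codes 1 to 6. Of the members 1.78% were not GT/AG, against 1.24% of annotated junctions. The share was 0.0101% with an annotated 5′ site only, 0.0123% with an annotated 3′ site only and 0% for unannotated pairings. The motif code was GT/AG for 6498 members, GC/AG for 110 and AT/AC, the rare class served by the minor spliceosome, for 8. The most-read AT/AC members were chr18:75698591-75698767 on the minus strand, with 21, 26 and 4 reads in the wild-type libraries and 18, 0 and 20 in the S34F libraries, and chr15:45007840-45008512 on the plus strand, with 21 reads in all. The most-read GC/AG member was chr2:105883646-105883673 on the minus strand, an intron of 28 nt, at 0.983, 1.80 and 1.39 RPM in wild-type and 1.24, 1.27 and 2.01 RPM in S34F libraries. On the plus strand it was chr22:26879950-26879970, of 21 nt, with 96 reads. These 4 showed overlapping groups, and none was called in the test described further on.

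Intron lengths covered a wide range, with a median of 1990.5 nt and quartiles of 533 and 10382 nt. The shortest gaps, such as chr2:3461817-3461837 on the plus strand with 20 reads, measured 21 nt. Whether gaps this short are spliced introns was not tested. The longest, chr19:1355303-2427804 on the plus strand, measured 1072502 nt and had 11 reads, 6 of them in wild-type replicate 3. In all, 388 members were under 100 nt and 522 (7.89%) over 100000 nt, against 0.336% over 100000 nt among annotated junctions.

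Members whose reads reached less than 20 nt past the junction had by far the longest median length. The largest overhang, the longest stretch of any read aligned on its shorter side, was 40 to 50 nt for 5543 members and under 20 nt for 592 (8.95%), against 0.794% of annotated junctions. The 592 had a median length of 100504 nt, against 1716 nt for the 5543, and 48.6% of their reads were multi-mapped. Their summed level differed widely between libraries, at 248, 224 and 439 RPM in wild-type and 236, 300 and 153 RPM in S34F replicates 1 to 3. Wild-type replicate 3 was the highest and S34F replicate 3, the deepest library, the lowest, while the other libraries of both groups overlapped between 224 and 300 RPM. Members spanning an annotated site were the longest position class (median 57520 nt) and followed the same order, from 468 RPM in wild-type replicate 3 to 217 RPM in S34F replicate 3. Both sets share members, among them chr16:33761171-33962999 with 7720 unique reads, so their orders are not independent. The members with an overhang of 40 to 50 nt lay closer together, between 1444 and 1833 RPM. Whether the short-overhang members are misplaced alignments was not tested.

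**Figure D1:**
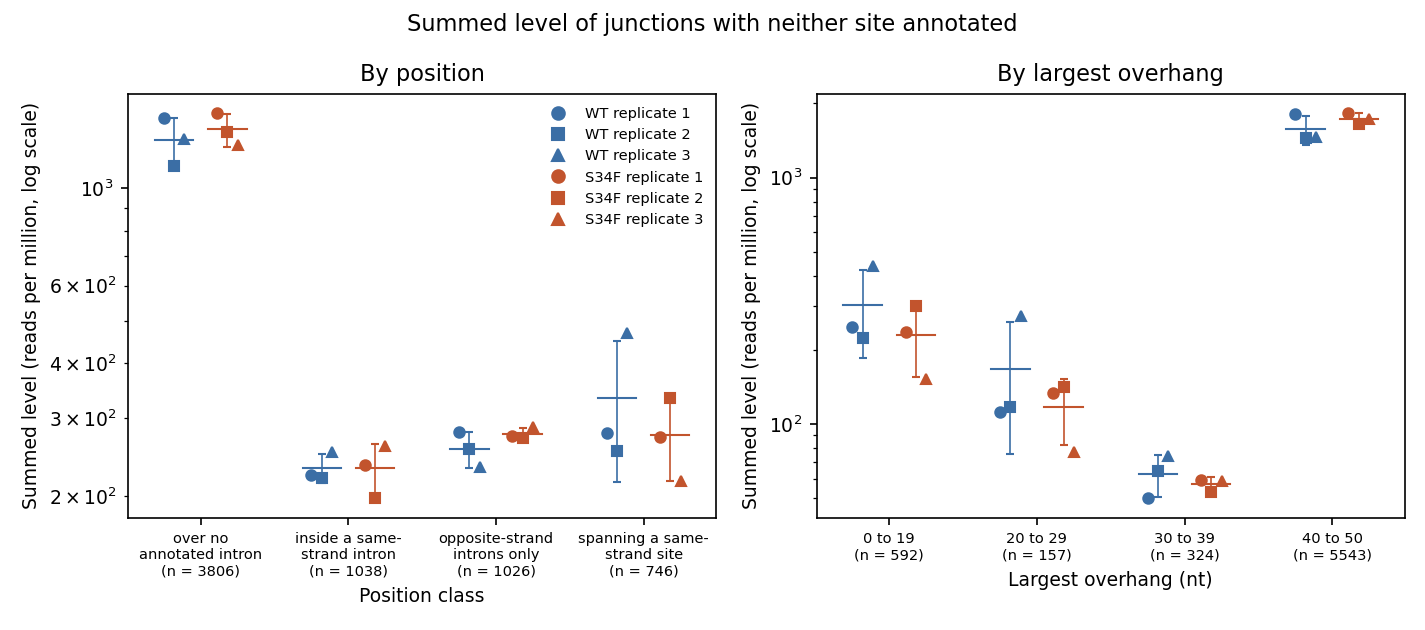
Summed level of the members in RPM (log scale) by position class (left) and by largest overhang in nt (right), 1 point per library, with the mean and SD of each group as bars. Members over no annotated intron and members with an overhang of 40 to 50 nt hold most of the reads, and the wild-type replicate 3 point stands highest among members with overhangs under 20 nt, at 439 RPM.

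**Figure D2:**
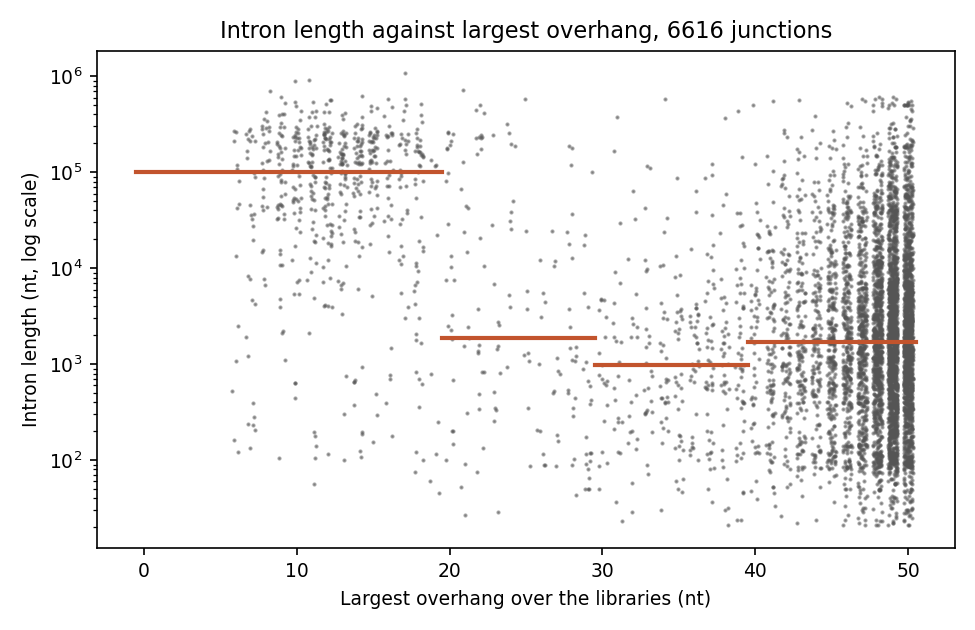
Intron length (nt, log scale) of each of the 6616 members against its largest overhang over the libraries (nt, points jittered sideways), with the median of each overhang class as a bar. The 592 members under 20 nt have a median of 100504 nt, while the other classes have medians of 975.5 to 1890 nt.

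The 3 members highest in mean RPM were high and low in the same libraries. The intron chr2:133038622-133038649 on the minus strand, of only 28 nt, was at 57.5, 65.2 and 120.0 RPM in wild-type and 76.8, 54.4 and 26.9 RPM in S34F replicates 1 to 3. The intron chr12:127650713-127650870 on the plus strand, of 158 nt and with a largest overhang of 27 nt, was at 58.4, 62.7 and 114 RPM in wild-type and 68.7, 46.9 and 28.8 RPM in S34F. The intron chr16:33761171-33962999 on the minus strand, of 201829 nt and with a largest overhang of 13 nt, was at 50.8, 58.1 and 110.4 RPM in wild-type and 61.4, 38.1 and 18.1 RPM in S34F. Each was highest in wild-type replicate 3 and lowest in S34F replicate 3, the groups overlapped, and adjusted p by edgeR was 0.623, 0.460 and 0.548. Multi-mapped reads made up 12.2%, 3.27% and 40.6% of their reads.

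The next members in level belonged to larger groups of introns. The intron chr18:8914374-8916788 on the plus strand, the most-read of 15 linked members, was at 59.0, 47.2 and 30.9 RPM in wild-type and 92.1, 71.3 and 29.7 RPM in S34F. A pair of introns on the minus strand of chromosome 6 shared the 5′ site 68596859: chr6:68591346-68596859 was at 34.3, 15.5 and 15.3 RPM in wild-type and 12.1, 17.5 and 23.01 RPM in S34F, and chr6:68593769-68596859 at 22.1, 12.7 and 8.05 RPM in wild-type and 15.1, 22.1 and 30.6 RPM in S34F. All 3 had a largest overhang of 50 nt and almost no multi-mapped reads (at most 0.333%). None was called (adjusted p by edgeR 0.746, 0.745 and 0.582); the balance within the chromosome 6 pair is given with the 5′ site shares.

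The most-read member over opposite-strand introns was low in a single library. The intron chr19:29102098-29102879 on the plus strand was at 19.2, 15.1 and 6.76 RPM in wild-type, and at 20.2 and 11.2 RPM in S34F replicates 2 and 3, but at 0.170 RPM, 4 reads, in S34F replicate 1. Its locus of 9 linked members behaved alike, with 12 reads in S34F replicate 1 against 234 to 856 in each of the other libraries. In all, 40 members had at least 90% of their summed RPM in 1 library, 14 of them in S34F replicate 3 and 10 in wild-type replicate 1.

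Many members joined up into chains. A total of 1688 members shared their 5′ site and 1349 their 3′ site with another member, and 2909 were linked to another by an exon of at most 500 nt. Joined in these 3 ways, the members formed 3808 linked loci, of which 2846 were single introns, while 962 loci held 3770 members and 55 held at least 10 members each. Only 394 members had a 5′ site, and 445 a 3′ site, that other reads also joined to an annotated site. Members were not evenly spread over chromosomes: there were 43.1 per 1000 tested annotated junctions in all, from 23.5 on chromosome 14 to 84.8 on chromosome 21.

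The locus with the most members, 127 introns on the plus strand at chr19:34881127-34885372, was built of regular steps. In it 109 introns (85.8%) had a length within 3 nt of a multiple of 50 nt, against 15.5% of all members, and 57.1% of its reads were multi-mapped. Its level was 31.0, 75.1 and 105 RPM in wild-type and 38.5, 25.2 and 42.3 RPM in S34F, and its most-read member, chr19:34882315-34882414, was at 4.21, 9.51 and 14.2 RPM in wild-type and 4.94, 3.60 and 4.84 RPM in S34F. Wild-type replicates 2 and 3 were high and wild-type replicate 1 lay within the S34F range (log2 change of the locus -1.04 ± 0.42 SE, edgeR adjusted p = 0.364). Another 17 members lay on the minus strand of the same stretch. The third locus by size, 29 introns at chr16:89973756-89975216 on the minus strand, was also heavily multi-mapped (59.1%), and its most-read member, chr16:89973819-89974243, was at 1.22, 0.682 and 1.03 RPM in wild-type and 0.895, 0.609 and 1.83 RPM in S34F. The locus second in size, on chromosome 17 and described below, had 0.0899% multi-mapped reads.

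A single test compared S34F with wild type across all 186132 junctions, with edgeR's quasi-likelihood test and Benjamini-Hochberg adjustment, and a junction was called at an adjusted p under 0.05. Among all junctions, 0.153% were called higher and 0.171% lower in S34F. Among the 6616 members, 19 were called higher and 6 lower (0.378% in all), and 914 had an unadjusted p under 0.05. The median log2 change was 0.10 over members and 0.02 over all junctions. Values of the groups did not overlap for 756 members higher in S34F (11.4%, against 10.5% of all junctions) and 413 lower (6.24%, against 7.69%). Because the rule pooled both groups, members read in only 1 group, 154 without wild-type reads and 50 without S34F reads, passed through that group and had to differ. The counts are therefore a description, and shares this near the background are no result about the class.

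All 25 called members had groups that did not overlap, 24 had a largest overhang of at least 37 nt, and 24 had at most 1 multi-mapped read. Adjusted p by edgeR lay between 0.0115 and 0.0496. With each library left out in turn, all 25 kept their direction, but the number of members called by edgeR depended on the library. It was 0 without wild-type replicate 2 (818 at an unadjusted p under 0.05), 1 without wild-type replicate 3 or S34F replicate 3, 6 without S34F replicate 1, 36 without S34F replicate 2 and 40 without wild-type replicate 1. On all libraries, limma-voom called 1 and DESeq2 44. The 25 lay in 13 linked loci, and 17 of them in only 5 loci, on chromosomes 17, 1, 11 and X.

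**Figure D3:**
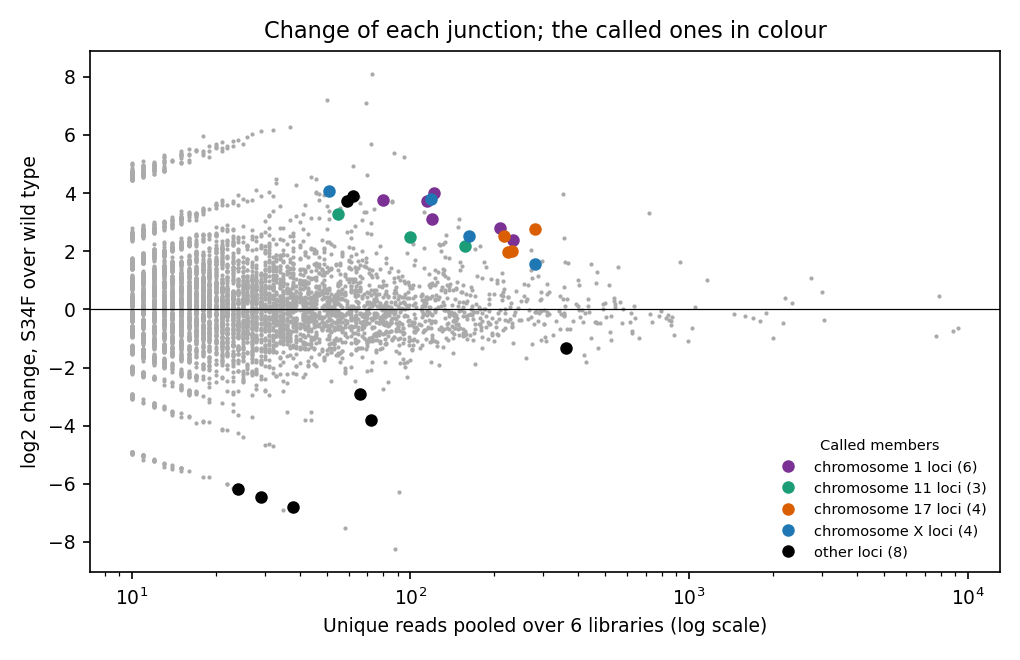
log2 change of each member (S34F over wild type) against its unique reads pooled over the 6 libraries (log scale), with the 25 called members as large points by locus. The 19 called rises lie between 1.55 and 4.06, and 17 of the 25 called members come from loci on chromosomes 1, 11, 17 and X.

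The 34 linked members at chr17:25326976-25416119 on the minus strand formed a branching chain over 89144 nt. Its most-read intron, chr17:25403670-25405617, lay near the 5′ end and was at 19.6, 5.21 and 18.7 RPM in wild-type and 17.6, 19.5 and 14.9 RPM in S34F. Wild-type replicate 2 was low, and the other libraries did not separate by group (log2 change 0.22 ± 0.51 SE, edgeR adjusted p = 0.901). Groups did not overlap for 16 of the 34 introns, 6 of the 8 whose 5′ site lay over 30 kb from the first and 10 of the 26 nearer ones, each with S34F the higher. Of the nearer ones, chr17:25326976-25416119 had no wild-type read, so it passed the read minimum through S34F alone and had to differ. The intron chr17:25373087-25374188 had 12, 4 and 12 reads (0.472, 0.160 and 0.619 RPM) in wild-type and 50, 48 and 154 reads (2.13, 2.66 and 3.92 RPM) in S34F, with a log2 change of 2.78 ± 0.39 SE and an adjusted p by edgeR of 0.0115.

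All 8 of the far members had a positive log2 change, from 0.52 to 2.78 with a median of 1.97, and 4 of them were called. Besides the intron above, these were chr17:25352286-25373033 with 10, 5 and 9 reads in wild-type and 39, 24 and 129 in S34F, chr17:25375014-25375967 with 17, 8 and 12 against 39, 32 and 123, and chr17:25326976-25346555 with 18, 9 and 10 against 59, 21 and 107. Of the 26 members nearer the first 5′ site, 20 had a positive log2 change and none was called, those with separate groups included. The nearer introns chr17:25399184-25403632 and chr17:25405759-25406836 had log2 changes of 1.64 and 2.04 but missed the threshold (edgeR adjusted p of 0.0625 and 0.0729). The 30 kb limit was not set in advance, and far and nearer introns were not tested against each other. The chain as a whole was at 64.6, 17.01 and 59.3 RPM in wild-type and 66.9, 72.6 and 71.1 RPM in S34F and was not called (edgeR adjusted p = 0.712). It started 787 nt from a chain of 19 members on the plus strand, chr17:25416907-25498851, which ran the opposite way and was at 9.24, 2.49 and 8.57 RPM in wild-type and 13.3, 9.41 and 13.7 RPM in S34F. Wild-type replicate 2 was the lowest library for both chains. Only 1 other pair of loci with at least 3 members each began within 2000 nt of each other on opposite strands, on chromosome 9.

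On the minus strand of chromosome 1, all 18 members at chr1:228548014-228556787 had a positive log2 change, from 1.66 to 5.21. All 18 lay over annotated introns of the plus strand and none of their own. The locus had 41, 40 and 41 reads in wild-type and 386, 92 and 788 reads in S34F, or 1.61, 1.604 and 2.12 RPM against 16.5, 5.09 and 20.1 RPM. The wild-type libraries were close together, and S34F replicate 2 was the lowest of the S34F libraries but above all of them. As 1 sum, its log2 change of 2.91 ± 0.46 SE missed the threshold (edgeR adjusted p = 0.0674).

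In that chromosome 1 locus, 6 introns were called, and 15 had groups that did not overlap, among them the pair without wild-type reads. The intron chr1:228552312-228553400 had 2, 2 and 1 reads in wild-type and 35, 5 and 76 in S34F, with a log2 change of 3.99 ± 0.68 SE. The intron chr1:228554504-228555494 had 0, 3 and 1 reads in wild-type and 29, 5 and 42 in S34F, with a log2 change of 3.76 ± 0.76 SE. The most-read called intron, chr1:228548701-228549147, had 7, 10 and 11 reads in wild-type and 56, 14 and 136 in S34F. These 3 had adjusted p of 0.0291, 0.0496 and 0.0496 by edgeR, and S34F replicate 2 was closest to the wild-type libraries in each.

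A pair of neighbouring loci on the plus strand of chromosome X held 4 called introns. In the locus of 17 members at chrX:13338765-13345876, the intron chrX:13342711-13342927 had 1, 1 and 0 reads in wild-type and 17, 5 and 27 in S34F, with a log2 change of 4.06 ± 0.79 SE (edgeR adjusted p = 0.0435). The intron chrX:13345771-13345876 had 9, 6 and 4 reads in wild-type and 48, 14 and 81 in S34F. Over the 17 introns the log2 change ran from -0.51 to 4.06 and was positive for 16, and the sum of the locus was at 12.1, 10.6 and 7.38 RPM in wild-type and 22.3, 11.1 and 19.7 RPM in S34F. In the locus of 10 members that followed, chrX:13348171-13348623 had 3, 3 and 0 reads in wild-type and 32, 13 and 68 in S34F (log2 change 3.79 ± 0.60 SE, edgeR adjusted p = 0.0195), and chrX:13348823-13348947 had 26, 21 and 13 against 76, 29 and 115. Neither locus was called as a whole (edgeR adjusted p of 0.195 and 0.177).

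All 10 members at chr11:74778939-74807872 on the minus strand had a positive log2 change, from 0.77 to 4.34. The locus was at 1.02, 1.16 and 1.03 RPM in wild-type and 3.79, 4.87 and 8.53 RPM in S34F. Every S34F library lay above every wild-type library by more than the wild-type spread. Among its called introns, a pair differed by only 4 nt at the 5′ site: chr11:74801410-74807872 had 6, 8 and 8 reads in wild-type and 22, 23 and 90 in S34F, and chr11:74801410-74807868 had 1, 2 and 1 against 12, 11 and 28. The third, chr11:74807268-74807872, had 5, 5 and 2 against 19, 14 and 55.

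**Figure D4:**
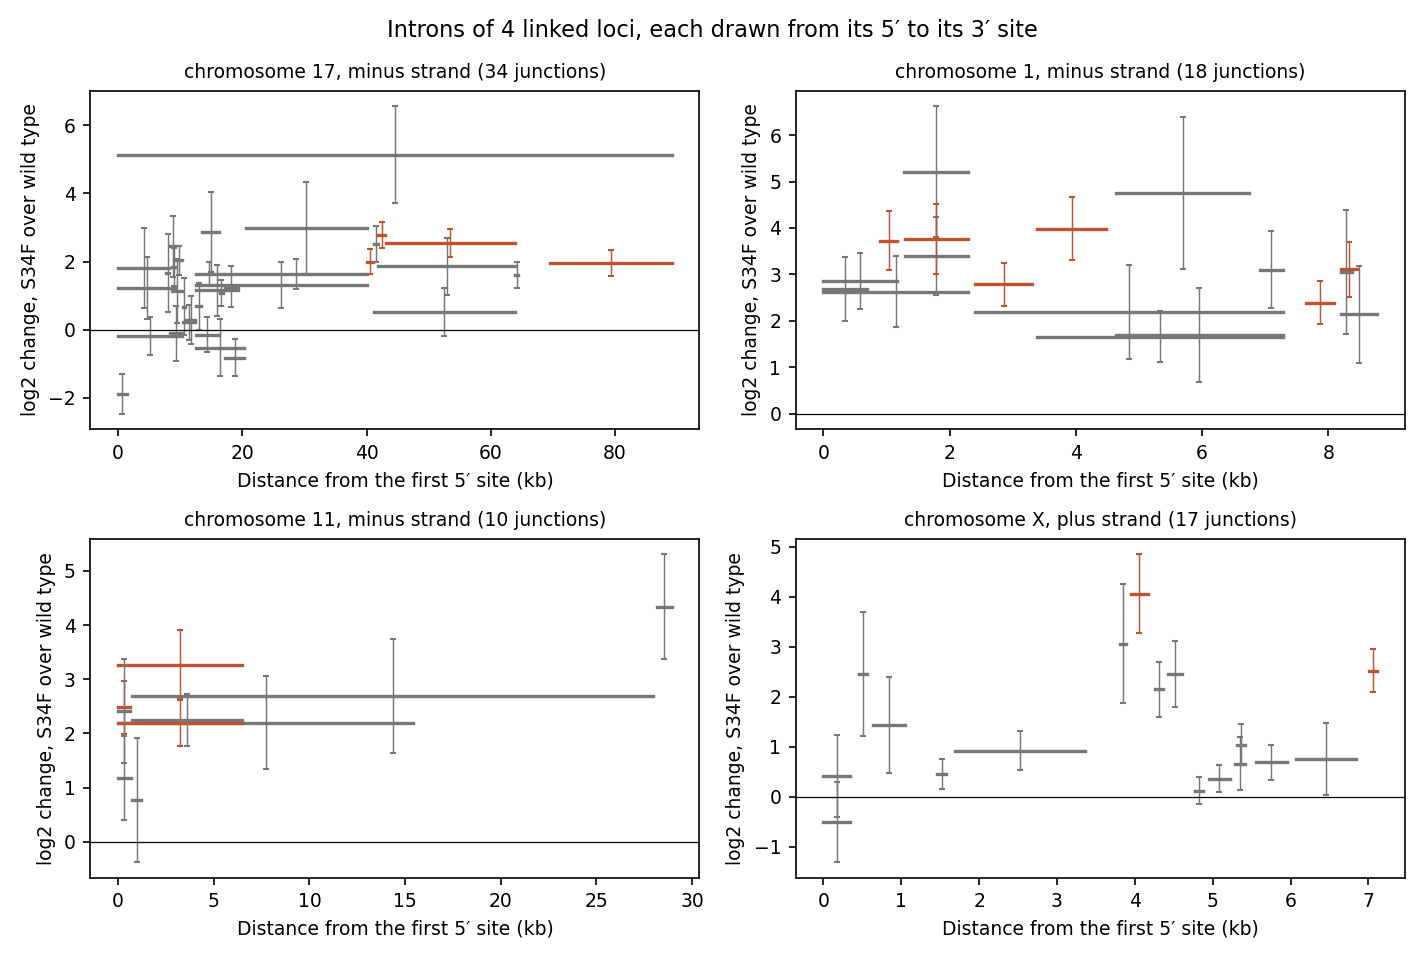
Introns of 4 linked loci, drawn from 5′ to 3′ site at their distance from the first 5′ site (kb), against their log2 change in S34F (bars are SE; called introns in orange). On chromosomes 1 and 11 all introns lie above 0, and the highest on chromosome 1 had no wild-type read. On chromosome 17 the called introns start over 30 kb from the first 5′ site, a limit that was not set in advance.

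Introns outside these loci were called as well. The intron chr5:6737553-6737675 on the plus strand, of 123 nt, had 2, 1 and 0 reads in wild-type and 18, 13 and 28 in S34F. In RPM the S34F libraries were nearly equal, at 0.767, 0.719 and 0.713 (log2 change 3.91 ± 0.69 SE, edgeR adjusted p = 0.0310). The intron chr6:22663532-22664162 on the plus strand had 1 read in each wild-type library and 6, 14 and 36 reads in S34F (log2 change 3.74 ± 0.74 SE, edgeR adjusted p = 0.0468).

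The 6 called falls lay in 6 loci. The intron chr16:11332773-11336311 on the plus strand had 36, 19 and 12 reads in wild-type and 1, 3 and 1 in S34F (log2 change -3.81 ± 0.68 SE, edgeR adjusted p = 0.0318). The intron chr11:59953645-59996930 on the plus strand had 24, 22 and 11 reads in wild-type and 2, 1 and 6 in S34F (log2 change -2.92 ± 0.55 SE, edgeR adjusted p = 0.0391). The intron chr1:142781864-142782347 on the minus strand was at 2.79, 3.33 and 4.54 RPM in wild-type and 1.53, 1.11 and 1.63 RPM in S34F, a smaller fall (log2 change -1.34 ± 0.25 SE, edgeR adjusted p = 0.0399), and 19.9% of its reads were multi-mapped. The groups of these 3 did not overlap.

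The other 3 called falls had no read in any S34F library. All of their reads were wild type, so they passed the read minimum through that group alone and had to differ; they are given as a description. The intron chr2:81709229-81775741 on the plus strand had 12, 21 and 5 reads in wild-type, which makes it at least 14.7-fold lower in S34F if 3 reads over the S34F group are taken as the floor. The intron chr4:127619469-127876446 on the minus strand had 9, 12 and 8 wild-type reads and was at least 11.2-fold lower. The intron chr7:120737767-120936089 on the plus strand had 7, 9 and 8 wild-type reads and was at least 9.27-fold lower, but its largest overhang was only 14 nt.

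Beyond the calls, 30 members had no wild-type read and at least 3 reads in each S34F library, and 18 had no S34F read and at least 3 in each wild-type library. Such members had to pass the rule through 1 group alone. In the first direction, chr21:31268019-31268132 on the minus strand had 4, 3 and 30 S34F reads, chrX:153043129-153043251 on the minus strand 5, 4 and 23, and chr16:636730-638130 on the plus strand 12, 3 and 14. With the same floor they were at least 10.6-fold, 9.20-fold and 8.34-fold higher. In the other direction, 3 more introns of the chromosome 4 locus of the called fall, all starting from the 5′ site 127619419, had 22, 22 and 18 wild-type reads and no S34F read. That locus, chr4:127352351-127877837 with 22 members, was not absent from S34F cells: it was at 10.97, 8.78 and 8.67 RPM in wild-type and 4.43, 12.4 and 1.58 RPM in S34F.

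Summing the reads of each linked locus, an analysis chosen after seeing the data, gave 3808 sums, and every other junction was kept as its own row. Over all rows 0.143% were called higher and 0.166% lower by edgeR. Of the loci, 7 (0.184%) were called higher and 3 (0.0788%) lower by edgeR, with 517 at an unadjusted p under 0.05. The chromosome 11 locus came first (log2 change 2.37 ± 0.29 SE, edgeR adjusted p = 0.00451). Its largest adjusted p by edgeR with 1 library left out was 0.0572. Leaving out wild-type replicates 1, 2 and 3 in turn gave 16, 0 and 1 called loci (484 at an unadjusted p under 0.05 without replicate 2), and leaving out S34F replicates 1, 2 and 3 gave 6, 25 and 2.

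Among the other called loci, the 6 members at chr6:3655030-3719596 on the minus strand summed to 10, 18 and 5 reads in wild-type and 91, 22 and 103 in S34F. The pair at chr12:20929724-20935739 on the minus strand had 0, 3 and 0 reads against 26, 15 and 26, and the pair at chr4:680461-681260 on the plus strand had 8, 1 and 1 against 21, 16 and 74. Sums fell for 3 members at chr1:150602470-150607306 on the plus strand, with 34, 22 and 35 reads in wild-type and 7, 6 and 8 in S34F, and for a pair at chr3:5124506-5128518 on the plus strand, with 25, 13 and 8 against 0, 1 and 0. In these 5 loci every wild-type value in RPM lay on the same side of every S34F value. Adjusted p by edgeR for them lay between 0.0299 and 0.0492. A called pair at chr16:635948-638130 on the plus strand had 1, 1 and 0 reads in wild-type and 21, 5 and 22 in S34F. Its intron chr16:636730-638130 had no wild-type read and 12, 3 and 14 S34F reads. That intron passed the read minimum through S34F alone, so this part of the sum had to differ. A called pair at chr22:29716533-29722774 on the minus strand had 1, 0 and 0 against 8, 5 and 43. At least 1 intron of this pair thus had no wild-type read, and at least 1 of the chromosome 3 pair no S34F read. Such introns also passed the read minimum through 1 group alone, so their part of each sum had to differ. The remaining called loci were the single introns on chromosomes 5 and 16 given above.

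The level of a member inside an annotated intron combines the level of the transcript and the share that the member takes of it. For 791 members the reads were therefore set against those of the host, the annotated junction of the same strand around them with the most reads, and the ratio was compared with edgeR over 2931 unannotated junctions with a host. Over these, 1.47% were called higher and 0.716% lower in S34F. Of the members, 14 (1.77%) were called higher and 3 (0.379%) lower. The median log2 change of the ratio was 0.18 over members and 0.25 over all 2931. Leaving out wild-type replicates 1, 2 and 3 in turn gave 20, 9 and 3 called members, and leaving out S34F replicates 1, 2 and 3 gave 6, 12 and 3.

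The intron chr6:26542952-26543067 on the plus strand, of 116 nt, was read only in S34F, with 7, 5 and 9 reads, while its host of 6625 nt had 247, 188 and 206 reads in wild-type and 188, 145 and 296 in S34F. The host level overlapped between the groups and the member did not. The intron chr7:131026148-131027383 on the plus strand was likewise read only in S34F, with 4, 5 and 8 reads beside 95, 60 and 163 host reads, against 104, 125 and 92 host reads in wild-type. The intron chr1:143402243-143402596 on the minus strand had no wild-type read either, and 39 and 11 reads in S34F replicates 1 and 2 but 0 in S34F replicate 3, so the groups overlapped at 0. These 3 and a member on chromosome 18 given further on passed the read minimum through S34F alone and had to differ, so their calls, 4 of the 14, are a description.

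Inside a single annotated intron of 19378 nt, on the plus strand of chromosome 6, a chain of 3 introns was called. The host, chr6:36044386-36063763, had 132, 145 and 130 reads in wild-type and 79, 66 and 108 in S34F. In reads and in RPM the host was lower in every S34F library than in any wild-type library, so its fall enters the ratios. Its inner introns chr6:36047864-36050807, chr6:36050891-36057457 and chr6:36057562-36058719 followed each other with a short exon between them. The first had 7, 5 and 0 reads in wild-type and 13, 17 and 25 in S34F, the middle one 31, 24 and 2 against 40, 40 and 76, and the last 18, 13 and 5 against 27, 30 and 38. Wild-type replicate 3 was the lowest library in each. The log2 changes of the ratio were 2.89 ± 0.69, 2.30 ± 0.58 and 2.15 ± 0.60 SE (edgeR adjusted p of 0.00458, 0.0102 and 0.0242).

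Inside an annotated intron of 10776 nt on the plus strand of chromosome 21, 4 members were called with larger ratios, but most of their reads came from 1 library. The intron chr21:34922407-34922525 had 1, 0 and 0 reads in wild-type and 10, 1 and 75 in S34F, and chr21:34923596-34924553 had 4, 0 and 0 against 16, 4 and 62, so S34F replicate 3 led in both. The host had 2 to 14 reads per library. The last 4 called rises were chr2:175515896-175520725 on the plus strand, with 3, 0 and 1 reads against 21, 12 and 7, chr2:58415891-58417230 on the minus strand, with 0, 1 and 0 against 6, 5 and 8, chr14:105641790-105641820 on the minus strand, with 1, 1 and 5 against 5, 8 and 12, and chr18:19261918-19262133 on the minus strand, read only in S34F with 4, 3 and 3.

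Ratios fell for 3 members: chr11:5323362-5325382 on the minus strand had 21, 25 and 15 reads in wild-type and 7, 5 and 8 in S34F, chr11:780382-780561 on the plus strand had 5, 13 and 4 against 1, 2 and 4, and chr14:24030971-24031061 on the minus strand had 5, 5 and 4 against 1, 0 and 1. Their log2 changes of the ratio were -2.68 ± 0.69, -3.12 ± 0.92 and -3.71 ± 1.05 SE (edgeR adjusted p of 0.0119, 0.0367 and 0.0271). The host of the first had 8, 41 and 13 reads in wild-type and 35, 27 and 56 in S34F. The next host had 29, 6 and 2 against 18, 23 and 45, and the last 61, 34 and 33 against 74, 47 and 150. Changes of the host therefore enter these ratios. None of the 3 members was called at junction level (edgeR adjusted p of 0.107, 0.296 and 0.214).

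Introns that share a 5′ site differ only in the 3′ site they use, the end that U2AF1 contacts. For 2243 members the reads were compared with all other reads of the same 5′ site, over 69020 junctions in all, in a test chosen after seeing the data. Over these, edgeR called 2.14% higher and 2.06% lower in S34F. Of the members 18 were called higher and 18 lower (0.802% each), at 26 different 5′ sites. Both shares were below those over all junctions. Of the 36, 34 differed by at least 10 percentage points. These counts include members read in 1 group alone, which passed the read minimum through it and had to differ. Without wild-type reads were chr7:65191815-65192027 and chr17:25326976-25416119. Without S34F reads were chr4:127619469-127876446, chr4:127386298-127619419 and chr4:127392117-127619419, all on the minus strand. The calls of these members are a description. All 36 kept their direction with each library left out, and leaving out wild-type replicates 1, 2 and 3 in turn gave 59, 18 and 16 called members, while leaving out S34F replicates 1, 2 and 3 gave 16, 8 and 2. Members at 1 site share reads, so a gain of one is a loss of another.

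The shift with the smallest p was at the 5′ site 127638890 on the plus strand of chromosome 12. The intron to 127642013 took 59.0%, 41.8% and 34.7% of the reads of the site in wild-type and 81.4%, 82.1% and 83.4% in S34F. The S34F libraries were close together, and the lowest lay above the highest wild-type library. The means were 45.2% ± 12.5 and 82.3% ± 1.02 (SD, n = 3 each), from 49 to 265 reads per library, a log2 change in odds of 2.42 ± 0.43 SE (edgeR adjusted p = 0.000468, called with any library left out). The intron to 127649796, 7783 nt farther, fell from 22.1%, 24.2% and 32.7% to 9.57%, 8.96% and 8.30%.

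Several shifts were between near neighbours. At the 5′ site 128271924 on the plus strand of chromosome 7, 3′ sites 170 nt apart competed: 128278827 took 69.5%, 83.5% and 69.4% in wild-type against 92.0%, 83.9% and 94.5% in S34F, and 128278997 took 28.2%, 16.5% and 30.6% against 4.42%, 16.1% and 1.84%. The groups were separate, though wild-type replicate 2 and S34F replicate 2 nearly met. At the 5′ site 168797225 on the minus strand of chromosome 2, 3′ sites 29 nt apart competed. The nearer one, 168795837, had 8, 1 and 6 of 10, 1 and 7 reads in wild-type and 2, 8 and 6 of 4, 37 and 20 in S34F, so depth was low. At the 5′ site 68728907 on the plus strand of chromosome 9, the 3′ site 68743143, 39 nt beyond the main one, took 5.21%, 0% and 1.56% in wild-type against 9.17%, 14.1% and 15.8% in S34F.

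The chromosome 17 chain described above used different 3′ sites in the 2 groups at 3 of its 5′ sites. From 25403632, the intron to 25399854 took 86.5%, 89.6% and 89.4% in wild-type against 73.1%, 75.6% and 67.3% in S34F, while the intron to 25399184, 670 nt farther, took 6.95%, 8.21% and 7.24% against 18.7%, 19.4% and 23.04%. These shares rest on 134 to 612 reads per library, and wild-type replicate 2, low in level, did not stand apart in share. From 25398947, the intron to 25395798 fell from 15.2%, 29.03% and 38.3% to 8.40%, 7.35% and 3.60%. From the first 5′ site, 25416119, the intron to 25414718 fell from 15.9%, 24.2% and 32.1% to 11.4%, 6.43% and 6.22%. The whole span to 25326976 was read only in S34F, with 4, 3 and 7 reads, so it had to differ, and 0 of 561 wild-type reads allow a share of up to 0.535%. Adjusted p by edgeR for the other 4 lay between 0.00666 and 0.0124.

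The most-read site with a shift was 68596859 on the minus strand of chromosome 6, with 7438 reads. The intron chr6:68591346-68596859 took 52.3%, 47.4% and 55.4% of them in wild-type and 34.4%, 33.2% and 34.1% in S34F, although its own level overlapped between the groups. The means were 51.7% ± 4.07 and 33.9% ± 0.624 (SD, n = 3 each), a log2 change in odds of -1.06 ± 0.32 SE (edgeR adjusted p = 0.0496). It was called in only 1 of the 6 fits that leave out a library.

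Further 5′ sites with over 100 reads shifted too. On the minus strand of chromosome 1, the intron chr1:247360550-247362661 rose from 19.8%, 12.1% and 11.8% to 29.1%, 32.3% and 29.3% of its 5′ site. On the plus strand of chromosome 19, chr19:49993170-49993546 took 10%, 10.2% and 21.7% in wild-type against 24.5%, 34.2% and 27.6% in S34F, and its main competitor, 58 nt away, had an annotated 3′ site only. On the plus strand of chromosome 3, chr3:12925505-12984323 fell from 30.6%, 25.7% and 30.8% to 5.71%, 12.3% and 11.8%, while the main intron of the site ended 58022 nt nearer. At the 5′ site 66347955 on the plus strand of chromosome 7, the intron to 66349239 rose from 67.6%, 65.4% and 66.7% to 85.2%, 95.7% and 100%, and the intron to 66350045 fell from 20.6%, 19.2% and 25% to 3.70%, 0% and 0%. The groups did not overlap for any of these 5 members, and adjusted p by edgeR lay between 0.0173 and 0.0439.

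Among called members at 5′ sites with reads in all libraries, the largest shift by points was at 142849199 on the minus strand of chromosome 1. The intron to 142847808 took 81.8%, 85.7% and 85.7% in wild-type against 21.1%, 21.4% and 33.3% in S34F, a difference of -59.1 points, and the intron to 142834115, 13693 nt farther, took 9.09%, 7.14% and 0% against 68.4%, 42.9% and 43.3%. The site had 7 to 30 reads per library. The first intron was called with any 1 library left out, and the other with only 1 of them left out (edgeR adjusted p of 0.00532 and 0.0194).

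**Figure D5:**
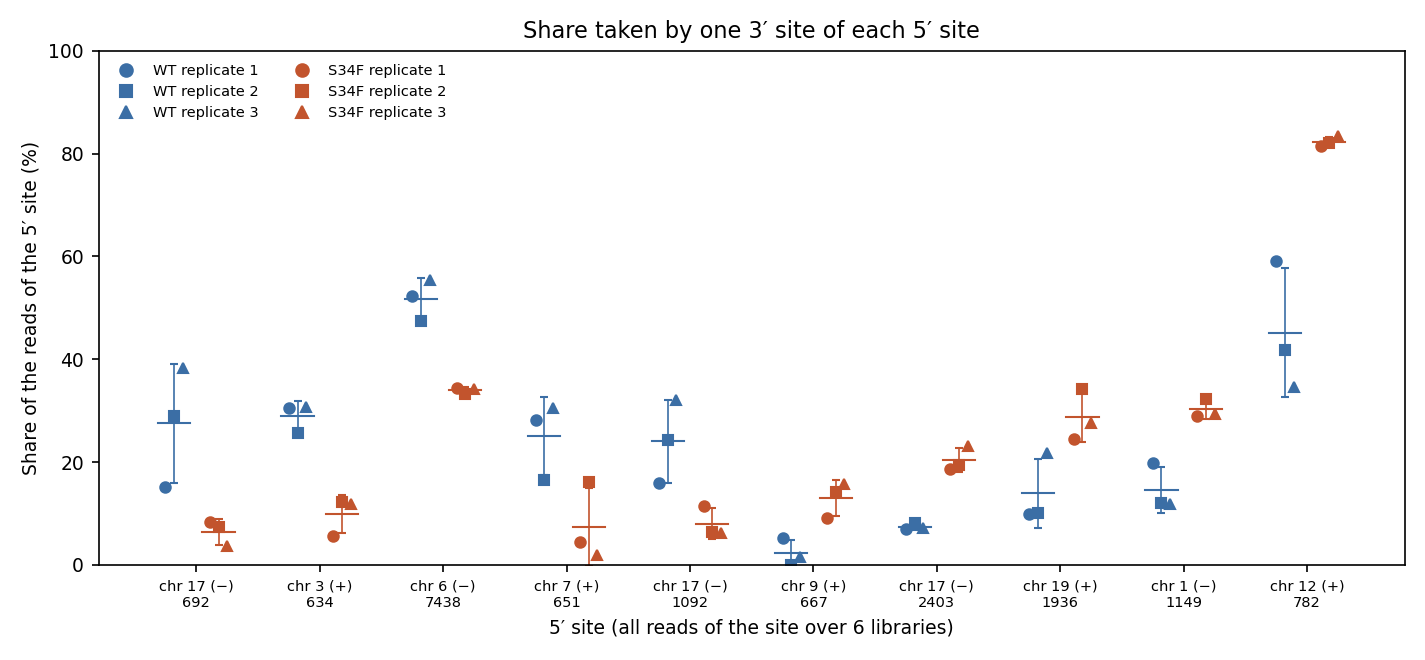
Share (%) of the reads of a 5′ site taken by 1 called member, for the 10 such sites with at least 500 reads, ordered by the difference, 1 point per library with the mean and SD of each group as bars (cut at 0). At the right, the chromosome 12 member lies at 34.7% to 59.0% in wild-type and 81.4% to 83.4% in S34F.

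The reverse comparison, of the 5′ sites that joined a shared 3′ site, was also chosen after seeing the data and covered 1891 members among 64857 junctions. Over these, edgeR called 1.01% higher and 0.925% lower in S34F. Of the members it called 8 higher (0.423%) and 6 lower (0.317%), both shares below those over all junctions. The called falls chr7:120737767-120936089, chr4:127619469-127876446 and chr8:11667339-11683658 had no S34F read. They passed the read minimum through wild type alone and had to differ, so their calls are a description. Leaving out wild-type replicates 1, 2 and 3 in turn gave 23, 4 and 8 called members, and leaving out S34F replicates 1, 2 and 3 gave 7, 3 and 1.

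At the 3′ site 119322266 on the minus strand of chromosome 7, the member starting at 119322819 had 14, 15 and 5 reads in wild-type and 12, 10 and 11 in S34F, which overlap in reads. It was 29.8%, 35.7% and 17.2% of the reads of the site in wild-type and 100% in each S34F library, since the site had 47, 42 and 29 reads in wild-type and no reads beside those of the member in S34F. The main other intron of the site came from an annotated 5′ site 118050 nt away. The log2 change in odds was 7.81 ± 1.16 SE (edgeR adjusted p = 0.000191), and it was called with any library left out. All 33 S34F reads of the site were those of the member, so the size of this change is poorly determined. At the 3′ site 127619469 on the minus strand of chromosome 4, reads from 127876446 were 9 of 63, 12 of 46 and 8 of 33 in wild-type and 0 of 16, 39 and 9 in S34F, which allows up to 4.69%. In S34F all reads of the site came from 127656579, so the 3′ site itself was in use in every library. The intron from 127876446, read in wild type alone, had to differ. It was also the main other intron for the called rise of the intron from 127656579.

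The chromosome 17 chain also shifted its 5′ sites. Into the 3′ site 25405759, the intron from the first 5′ site 25416119 fell from 84.9%, 87.5% and 85.3% to 65.3%, 63.4% and 60.1%, and the intron from 25406836, an inner 5′ site, rose from 10.7%, 8.93% and 7.36% to 30.2%, 30.6% and 36.5%. The means for the inner site were 8.997% ± 1.67 and 32.4% ± 3.54 (SD, n = 3 each), a log2 change in odds of 2.25 ± 0.43 SE (edgeR adjusted p = 0.00293). Wild-type replicate 2 did not stand apart in this share either.

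Set beside the other unannotated classes, the members had the highest share of multi-mapped reads, given above, and the lowest median change. Their median log2 change was 0.10, against 0.26 for junctions with an annotated 5′ site only, 0.22 for those with an annotated 3′ site only, 0.33 for unannotated pairings of annotated sites, and 0.00 for annotated junctions. Groups did not overlap on the higher side for 11.4% of members, against 13.2% to 18.1% of those 3 classes. The share of rows called by edgeR was 0.378% for members, 0.135% to 0.303% for the 3 classes and 0.337% for annotated junctions. Over all junctions 0.153% were called higher and 0.171% lower, so the share of members is near the background. Of the 25 called members, 17 lay in 5 linked loci. These differences between classes were not tested.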

How the data were processed

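STAR junction tables of 6 libraries were deposited, 1 per library, with 9 columns; STAR and hg19 are named in the submitters' processing notes, and the annotation, aligner settings and junction filters are not given in the sources used here. The deposited values used are raw counts of uniquely mapped reads (column 7) and of multi-mapped reads (column 8) per junction, not normalized by the authors as far as whole numbers show. Poly(A)-selected RNA was sequenced as paired ends on a HiSeq2000, per the labels' protocols. Such counts are of reads, not molecules, so depth limits (0 reads taken as up to 3) cover counting error only.

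Tables were joined by position and strand (Python 3.11.15, pandas 2.3.3), an absent junction counting as 0. RPM is scaled to 1000000 column 7 reads of a library. Tests ran across all junctions with at least 10 pooled reads: edgeR 4.0.16 in R 4.3.3, quasi-likelihood with TMM factors, group as the only term, Benjamini-Hochberg over all rows. Ratios (host intron, 5′ site, 3′ site) used 2 counts per library with a library intercept. Alternatives used DESeq2 1.42.0, limma 3.58.1 (voom), other filters and each library left out.

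The junction and host ratio tests were tested on simulated data with known changes. Replicate numbers did not pair the libraries: same-number deviations correlated at -0.18, -0.13 and -0.02.

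Members, lists and tests were chosen with earlier results of these data known. Named members are the 6 highest in level, the called ones with at least 30 pooled reads and the largest changes (up to 6 each way), the 3 largest host ratio changes each way, the most-read member of the 3 largest loci, of each motif code and of each position class, and the longest and shortest. Others were named after their values were seen.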

Additional observations from a re-analysis of the deposited data

How the results depend on the processing

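Against 25 members called at junction level by edgeR, 44 were called by DESeq2, 1 by limma-voom, 130 with no low-count filter, 6 with at least 30 pooled reads and 42 with the replicate block; leaving out 1 library gave 0 to 40. Counts stayed within 1.5 times the 25 without TMM factors (34), with multi-mapped reads added (19), with overhangs of at least 20 nt (24), with newer edgeR dispersions (20, chosen after seeing the data), with annotated sites of either strand (25) and without members near 1 annotated junction (25). Against 17 host ratio calls, 8 were made with at least 30 pooled reads, 14 with the replicate block and 15 with the shortest host; leaving out 1 library gave 3 to 20. Locus sums gave 0 to 25 calls against 10, 5′ site shares 2 to 59 against 36 (22 with the replicate block), and 3′ site shares 1 to 23 against 14, with 1 library left out. The difference in summed level, S34F minus wild type, was 35.0 RPM and lay between -173 RPM (multi-mapped reads added) and 109 RPM (overhangs of at least 20 nt) under other settings, within the spread between libraries. Among 320 values of named members under other settings, 187 kept their side of the threshold and 133 lost the call with the same direction, and none reversed. The causes were not tested. Depth limits low members: a junction of 10 pooled reads has under 2 reads per library on average. No paired fit was run for the locus sums and the 3′ site shares.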
